A study of Saccharomyces cerevisiae with 30 samples.

Results

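The transcript courses of a synchronized yeast culture were compared across 3 windows of 7 time points each, to describe which genes kept swinging as the culture moved through successive cell cycles and which flattened out. Window 1 held 30 to 90 min after release, window 2 held 110, 120, 130, 160, 170, 180 and 190 min, and window 3 held 200 to 260 min. Together they hold 21 of the 30 time points of the series. Time points 100, 140 and 150, which the study lists as transcriptome-wide artifacts (STRIPEs), were left out. The study's methods also list 110 min for correction, and it stands in window 2, so counts without it are given. Of the 7127 features in the table, 5137 had a mean of at least 10 TPM (length-normalized transcript abundance, scaled to a fixed total per library), and 5108 of these were above 0 TPM at all 21 window time points and were compared. The other 29 were listed at 0 TPM at 1 or more window time points. They include MFA1, which encodes the mating pheromone a-factor and whose gene spans 111 bases, and it was listed at 0 at 20 of the 21.

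The culture was Saccharomyces cerevisiae of the BF264-15D background, MATa bar1, grown in YEP medium with 2% dextrose at 38.5°C, a mild heat stress. Cells were held in G1 with alpha-factor (40 ng/ml, 150 min) and released, and samples were taken every 10 min from 0 to 290 min. Every window shares this strain, medium, temperature and arrest, and the bar1 mutation removes the protease that degrades alpha-factor. There was 1 culture and 1 library per time point, so the windows have no replicates, no test was made between them, and the counts below are descriptions of this culture. The depth of each library is unknown, because TPM sum to a fixed total. Median-of-ratios factors, by which the TPM were divided, ranged from 0.936 to 1.15 in the windows. The a-cell genes STE2, the alpha-factor receptor, at 191 to 286 TPM, STE6 at 41.65 to 70.57 TPM and ASG7 at 90.5 to 138 TPM were present throughout. The a-cell genes MFA1 and MFA2 were listed at 0 at 20 and 4 of the 21 time points, and BAR1 at all 21. The alpha-cell genes STE3, at 3.92 to 8.49 TPM, and MF(ALPHA)1, at 1.32 to 5.09 TPM, were low. MF(ALPHA)2 was not at 0 either, with 14.5 to 22.2 TPM.

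In budding yeast, transcription runs through the cell cycle as a relay. SBF and MBF switch on the genes of Start and DNA synthesis at the G1/S boundary, histone genes follow in S phase, the Mcm1-Fkh2-Ndd1 complex switches on the CLB2 cluster before mitosis, and the genes of mitotic exit and daughter separation follow at the M/G1 boundary. In a culture released from a common arrest these groups rise and fall together, and as cells drift apart in timing the average over the culture is known to flatten. In bulk RNA, a course that flattens because cells are at different stages and a course that flattens within each cell cannot be told apart.

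The DNA upstream of 3 genes is shown because each carries a short motif of a factor of this relay, or of the stress response, and each gene had a wide course in window 1 and a narrow course in window 3. Each run is the RefSeq R64 sequence from 250 bases before to 50 bases after the gene start, which in this annotation is the first coding base, read 5′ to 3′ on the gene's strand. Capitals mark the motif. POL30 (chrII:425717-426016, minus strand) encodes PCNA, the sliding clamp of DNA polymerase, and has the MBF motif ACGCGT, overlapped by 1 SBF match of CGCGAAA. HOF1 (chrXIII:335048-335347, plus strand) encodes an F-BAR protein of cytokinesis and has the forkhead motif GTAAACA. PGM2 (chrXIII:477557-477856, minus strand) encodes the major phosphoglucomutase and has the stress element CCCCT, here as AGGGG.
POL30: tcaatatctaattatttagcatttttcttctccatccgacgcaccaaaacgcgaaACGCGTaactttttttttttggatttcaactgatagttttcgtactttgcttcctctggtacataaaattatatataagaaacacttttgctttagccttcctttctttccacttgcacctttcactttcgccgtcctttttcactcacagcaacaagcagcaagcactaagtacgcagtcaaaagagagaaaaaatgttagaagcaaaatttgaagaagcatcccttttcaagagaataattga
HOF1: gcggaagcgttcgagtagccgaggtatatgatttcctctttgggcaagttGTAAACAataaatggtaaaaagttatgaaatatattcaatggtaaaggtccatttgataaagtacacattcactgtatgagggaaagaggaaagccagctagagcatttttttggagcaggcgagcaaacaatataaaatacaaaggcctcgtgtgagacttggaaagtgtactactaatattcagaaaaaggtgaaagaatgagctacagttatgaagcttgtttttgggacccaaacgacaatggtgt
PGM2: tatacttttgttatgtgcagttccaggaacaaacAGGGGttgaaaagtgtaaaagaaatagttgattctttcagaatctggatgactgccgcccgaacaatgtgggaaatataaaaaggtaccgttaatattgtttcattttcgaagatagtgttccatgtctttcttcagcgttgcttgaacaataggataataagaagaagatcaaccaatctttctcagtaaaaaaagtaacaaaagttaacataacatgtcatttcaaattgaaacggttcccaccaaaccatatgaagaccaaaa

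These motifs were searched on both strands of the same 300-base window of 6020 protein-coding genes, and a match is a description of letters only. The MBF motif was found in 45.2% of the 31 compared G1/S genes and in 3.06% of all genes. The forkhead motif was found in 56.2% of the 16 genes of the CLB2 cluster and in 6.53% of all genes. The stress element was found in 56.2% of the 16 trehalose and glycogen genes, in 34.5% of the 165 damped genes with a window and in 21.6% of all genes. Both this element and the trehalose and glycogen list were chosen after the amplitudes were seen, so these shares only describe them.

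Across the transcriptome, courses were widest in window 1 and narrower in windows 2 and 3. Amplitude was the log2 of the highest over the lowest scaled TPM in a window. Its median over the 5108 features was 0.37 in window 1, 0.28 in window 2 and 0.26 in window 3, or a 1.30-fold, 1.21-fold and 1.20-fold range. The amplitude was lower in window 3 than in window 1 for 3753 features (73.5%), and the median difference was -0.10. From window 2 to window 3 it fell for 2834 (55.5%). A range of at least 2-fold, called wide here, was reached by 315 features (6.17%) in window 1, by 105 (2.06%) in window 2 and by 116 (2.27%) in window 3. By the definitions used here, 191 features (3.74%) damped, which means wide in window 1 and at most 0.5 times that amplitude in window 3. Another 43 (0.842%) kept a wide range in all 3 windows at more than 0.5 times the amplitude of window 1, and 16 (0.313%) widened, the reverse of damped. Without 110 min, 89 were wide in window 2 and 41 kept a wide range. Window 2 spans 80 min and the others 60 min.

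**Figure D1:**
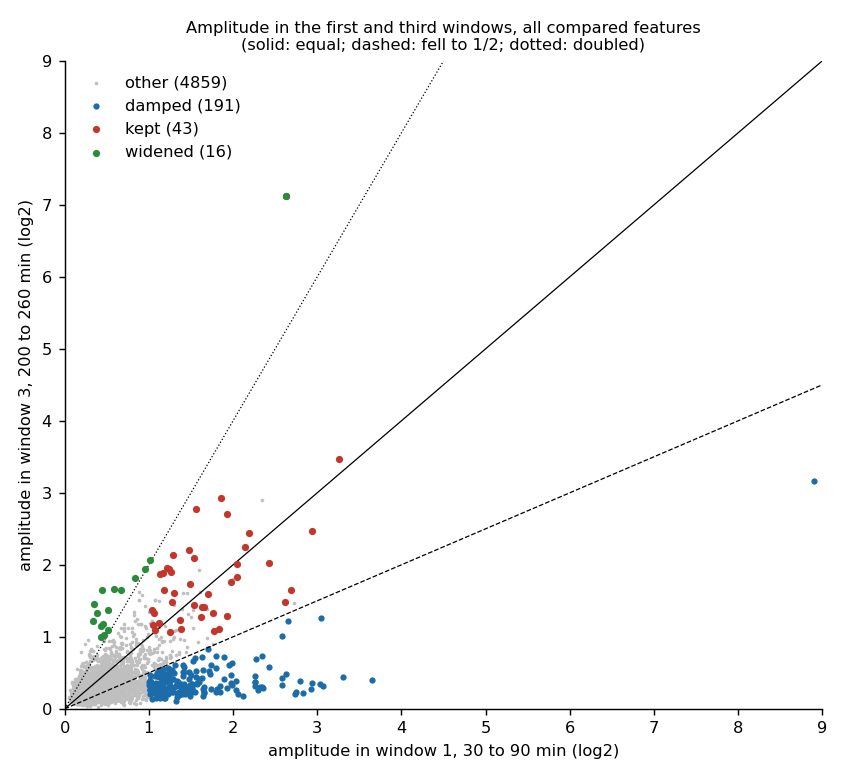
Amplitude in window 1 (x axis, log2) against window 3 (y axis, log2) for the 5108 compared features, coloured by class, with lines for equal amplitude (solid), 0.5 times (dashed) and 2 times (dotted) the window 1 amplitude. The 191 damped features lie along the bottom, most of them under 1 in window 3, while the 43 kept features scatter about the solid line; YAL059C-A, at 7.12 in window 3, is counted as both kept and widened.

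The genes of the cell cycle relay were among those that flattened. The 6 lists of cell cycle genes hold 107 genes, of which 94 were compared and 13 were below the minimum mean. Their median amplitude was 1.04 in window 1, 0.50 in window 2 and 0.29 in window 3. Of the 94 genes, 49 (52.1%) were wide in window 1, against 6.17% of all features, 1 was wide in window 2 and 0 in window 3. All 49 damped, as did 191 of the 315 features that were wide in window 1 (3.74% of all features), and none of the 94 kept a wide range or widened. Over all features 2.06% were wide in window 2, 2.27% were wide in window 3, 0.842% kept a wide range and 0.313% widened. The counts of 1 and 0 among the 94 are near these shares. The largest amplitude of a cell cycle gene in window 3 was 0.73, that of PCL9, a cyclin of early G1, and without 250 min that amplitude was 0.35. The amplitude was lower in window 3 than in window 1 for 91 of the 94. In window 3, 58 (61.7%) were above the median of all features, against 92 in window 1. All 7 values of window 3 lay inside the range of window 1 for 47 of the 49 damped cell cycle genes. The same held for 68.6% of all damped features and 28.2% of all compared features. The definition of damped makes this likely. The earliest time point carries much of the window 1 range: without 30 min, 26 of the 94 were wide in window 1 and 26 damped, and the median amplitude was 0.74. Leaving out any other time point left between 47 and 49 wide in window 1. With the trimmed amplitude, which drops the highest and the lowest value of each window, 21 were wide in window 1, and with a straight line removed in each window 20 were.

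**Figure D2:**
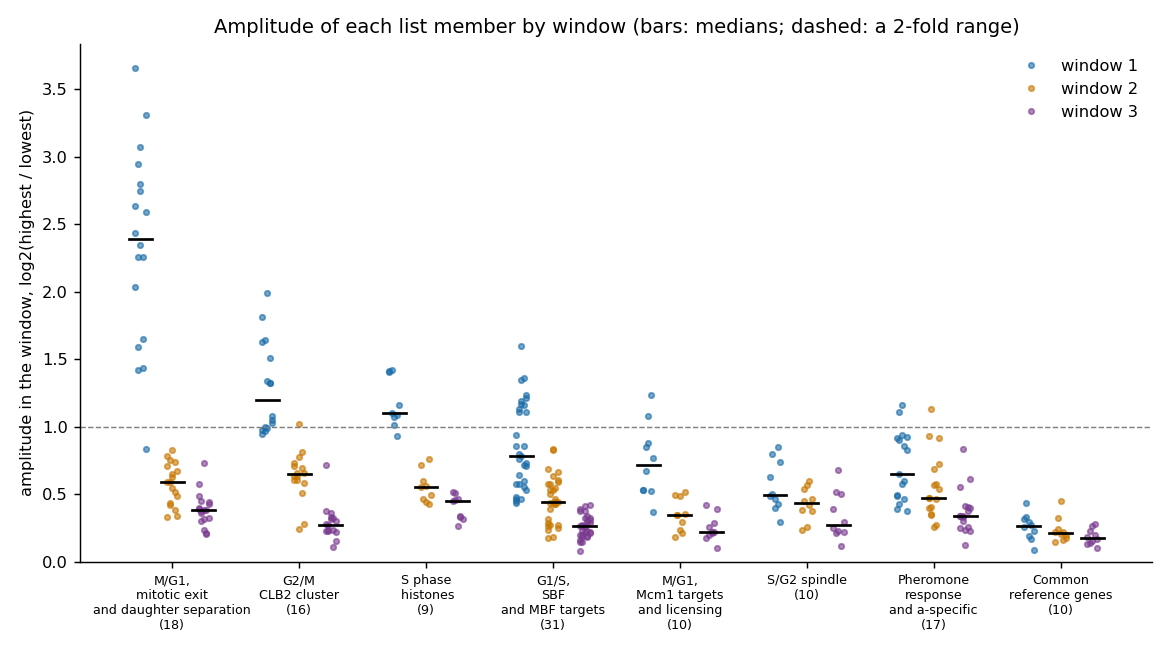
Amplitude of each compared member (points, log2 of highest over lowest scaled TPM) of 8 gene lists in windows 1, 2 and 3, with the median of each list as a bar and the 2-fold limit as a dashed line. The mitotic exit genes fall from a median of 2.39 to 0.59 and 0.38, while the common reference genes start at 0.26 and end at 0.18.

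Of the 16 lists, the M/G1 genes of mitotic exit and daughter separation had the largest median amplitude in window 1 and the largest fall in it. Their median amplitude was 2.39, 0.59 and 0.38 in windows 1, 2 and 3, and 17 of the 18 were wide in window 1 and damped. The exception was CHS1, a chitin synthase used in repair at separation, with amplitudes of 0.84, 0.34 and 0.32. EGT2, which encodes a cell wall protein of daughter separation, read 24.2, 14.3, 9.93, 21.5, 79.1, 125 and 121 scaled TPM from 30 to 90 min. In window 2 it read 75.1, 64.1, 54.2, 60.7, 73.0, 90.1 and 92.9, and in window 3 88.9, 85.1, 74.4, 71.6, 70.2, 68.0 and 67.5. The low values near 50 min did not return: every value of windows 2 and 3 lay above the values from 30 to 60 min and below those at 80 and 90 min. Its fold range went from 12.6 to 1.72 to 1.32. CTS1, the endochitinase that cuts the septum, rose from 72.3 scaled TPM at 60 min to 606 at 90 min, an 8.39-fold range. In window 3 it stayed between 528 and 656, near its window 1 peak. SIC1, the inhibitor of the mitotic kinase, ranged from 22.3 at 50 min to 67.2 at 80 min in window 1, and from 44.2 to 57.3 in window 3. The other daughter separation genes behaved alike, with window 1 amplitudes of 2.59 for DSE1, 2.75 for DSE2, 2.79 for DSE3, 2.94 for DSE4 and 2.63 for SCW11, and window 3 amplitudes between 0.24 and 0.48. Among the lists this was also the one whose level shifted most: the mean log2 level of 17 of the 18 was higher in window 3 than in window 1, by a median of 0.84. Over all compared features it was higher for 2596 of 5108, and the median difference was 0.003.

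The CLB2 cluster, which drives entry into mitosis, peaked at 60 min in window 1 and at 180 min in window 2, and had no common peak in window 3. Window 3 spans 60 min, less than the time between those peaks, so the next peak could lie outside it. The median amplitude of the cluster was 1.20, 0.65 and 0.27, and 11 of 16 genes were wide in window 1 and damped. HOF1 read 8.78, 20.9, 30.5, 34.8, 31.7, 23.7 and 20.3 scaled TPM in window 1. In window 2 it read 14.4, 12.8, 14.3, 20.4, 26.03, 24.7 and 22.3, and in window 3 20.8, 18.6, 16.6, 17.7, 18.3, 19.01 and 20.7. The peak of window 2 was lower and its trough higher than in window 1, and window 3 stayed inside the range of window 2. HOF1 was the only cell cycle gene of the 94 with a wide range in window 2, at 1.02, and without 120 min or without 170 min none was. SWI5, the factor that opens the next step of the relay, went from a 3.12-fold range (12.1 to 37.7) to 1.58-fold and 1.21-fold, with window 3 values from 19.9 to 23.9. CLB2, the main mitotic cyclin, missed the 2-fold limit in window 1, with 20.5 to 39.6 scaled TPM (1.93-fold), and ranged from 17.9 to 23.1 in window 3. For CDC20, the activator of the anaphase-promoting complex, the ranges were 13.2 to 37.7, 19.3 to 27.5 and 22.3 to 26.3. In window 1, 13 of the 16 peaked at 60 min, in window 2, 8 peaked at 180 min and 5 at 170 min, and in window 3 peaks were spread over all 7 time points with at most 4 at any. Without 30 min, 2 of the 16 were wide in window 1 and the median amplitude was 0.73, still above the 0.27 of window 3.

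**Figure D3:**
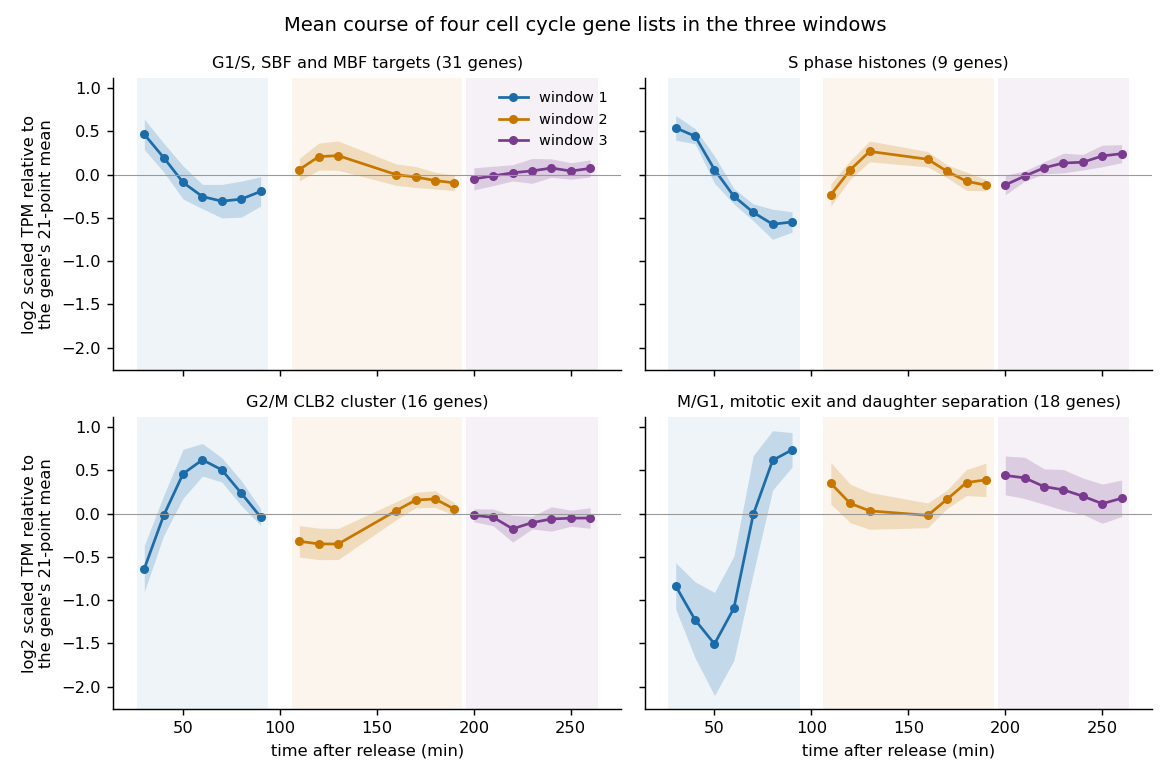
Mean course of 4 cell cycle lists over time after release (min), as log2 scaled TPM relative to each gene's mean over the 21 time points; lines are means over the compared members and bands are 1 SD over members, not over replicates. The swings of the G2/M list cover 1.26 in window 1, 0.52 in window 2 and 0.16 in window 3, and those of the mitotic exit genes cover 2.24, 0.41 and 0.33.

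Histone genes damped too, but of all the cell cycle lists they held the most common course in window 3. These encode the core nucleosome proteins that are made in S phase. Their median amplitude was 1.10, 0.55 and 0.45, and 8 of 9 were wide in window 1 and damped. Without 30 min, 4 of the 9 were. HTB2, for histone H2B, read 1111, 1029, 831, 624, 487, 465 and 419.7 scaled TPM from 30 to 90 min. In window 2 it read 513, 689, 844, 756, 702, 617 and 594, and in window 3 556, 612, 717, 696, 699.7, 760.3 and 697. The fall of window 1 gave way to a rise and fall around 130 min and then to a course that was lowest at 200 min and highest at 250 min. HTA1, for histone H2A, likewise went from 799.9 at 30 min to 301 at 80 min in window 1, and from 435 at 200 min to 622 at 260 min in window 3. The linker histone HHO1 was the member that did not reach the 2-fold limit, at 0.93. The mean course of the 9 histones ran from -0.12 at 200 min to 0.24 at 260 min, and its variance was 0.738 times the mean variance of the members in window 3. For the mitotic exit genes this share was 0.686, and for the CLB2 cluster 0.220. In window 1 the histones had 0.955 and the CLB2 cluster 0.854.

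The G1/S genes, targets of SBF and MBF that open DNA synthesis, were high at 30 min and again at 120 and 130 min. Their median amplitude was 0.79, 0.44 and 0.26. Of the 31 compared genes 11 were wide in window 1, all 11 damped, and all 31 had a lower amplitude in window 3 than in window 1. POL30 read 112, 83.0, 63.9, 52.1, 50.1, 57.1 and 71.9 scaled TPM in window 1. In window 2 it read 89.8, 91.6, 88.3, 69.4, 74.6, 64.02 and 63.5, and in window 3 64.8, 69.6, 80.9, 65.2, 77.1, 73.0 and 77.7. The early values of window 2 were high and the late ones low, whereas in window 3 high and low values alternated. RNR1, the large subunit of ribonucleotide reductase, ranged from 69.9 to 157 in window 1, from 96.1 to 140.0 in window 2 and from 97.9 to 119 in window 3. PCL1, a G1 cyclin, had the widest course of the list, 16.2 to 48.9 scaled TPM, and ranged from 28.9 to 38.3 in window 3. The G1 cyclin CLN2 was not wide in any window, with amplitudes of 0.72, 0.44 and 0.19. In window 1, 30 of the 31 peaked at 30 min, in window 2, 28 peaked at 120 or 130 min, and in window 3 peaks fell at all 7 time points with at most 7 at any. Without 30 min, 2 of the 31 were wide in window 1, and 29 still had a lower amplitude in window 3.

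The remaining cell cycle lists had smaller courses from the start. None of the 10 compared S/G2 spindle genes was wide in any window, and their median amplitude was 0.50, 0.43 and 0.27. Over all features 6.17%, 2.06% and 2.27% were wide in windows 1, 2 and 3, so that count is near the shares of all features. SPC24 and SPC25, kinetochore subunits of the Ndc80 complex, were the 2 spindle genes whose amplitude was not lower in window 3, at 0.68 against 0.47 and 0.50 against 0.43. The other 8 were lower, near the 73.5% of all features. Among the Mcm1 targets and licensing genes, MCM5 and MCM7 of the replicative helicase were wide in window 1, at 1.24 and 1.08, and damped to 0.28 and 0.22. CLN3, SWI4 and CDC6, which act before Start, had window 1 amplitudes of 0.53, 0.37 and 0.88 and window 3 amplitudes of 0.42, 0.39 and 0.22. SWI4 was thereby the third cell cycle gene whose amplitude was not lower in window 3. Without 260 min, 93 of the 94 were lower, SWI4 and 9 of the 10 spindle genes among them, and without 230 min all 10 genes of the Mcm1 list were.

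**Figure D4:**
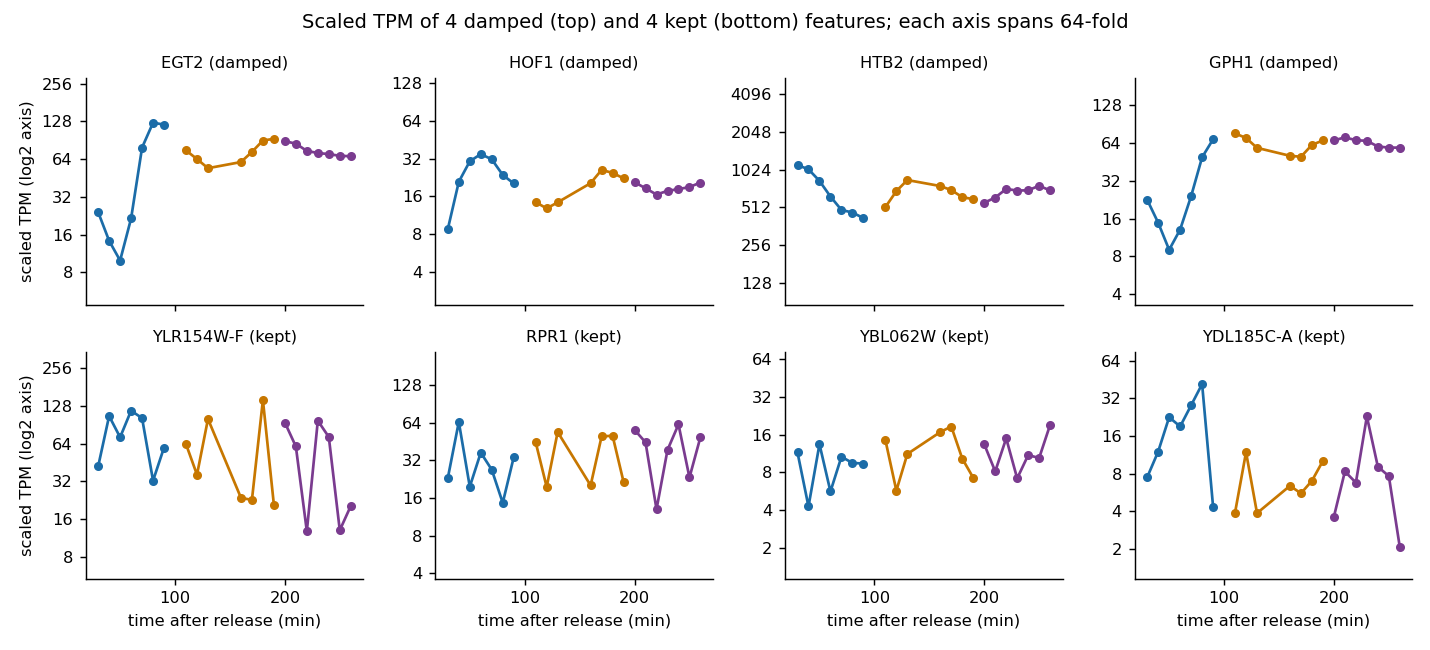
Scaled TPM (log2 axis, each panel spanning 64-fold) against time after release (min) in windows 1 (blue), 2 (orange) and 3 (purple) for damped genes (top) and kept features (bottom). EGT2, HOF1, HTB2 and GPH1 follow smooth courses in window 1 that are narrower in window 3, where HTB2 also moves up and down. YLR154W-F, RPR1, YBL062W and YDL185C-A jump between neighbouring time points in all 3 windows.

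The cell cycle lists account for 49 of the 191 damped features (25.7%), and 121 are in none of the 16 lists. Reserve carbohydrate genes form a further group of damped genes, described with a list of trehalose and glycogen genes chosen after the amplitudes were seen. Their median amplitude was 0.95, 0.29 and 0.20, with 7 of 16 compared genes wide in window 1 and all 7 damped. GPH1, the glycogen phosphorylase, read 22.6, 14.8, 9.02, 13.1, 24.2, 49.4 and 68.7 scaled TPM in window 1. In window 3 it read 67.3, 71.3, 67.6, 66.8, 60.2, 59.0 and 59.0. It fell until 50 min, rose to 90 min and then stayed close to that upper level. GSY2, the main glycogen synthase, had amplitudes of 2.03, 0.35 and 0.27, TSL1 of the trehalose synthase complex 1.65, 0.20 and 0.17, and PGM2 2.05, 0.44 and 0.21. In window 1, HXK1, a hexokinase repressed by glucose, was likewise lowest at 50 min (71.0) and highest at 90 min (424), and it ranged from 305 to 385 in window 3. Outside the lists, HXT7, a high-affinity hexose transporter named here after its values were seen, ranged from 39.7 at 50 min to 284 at 90 min and then from 161 to 187 in window 3. Of the 191 damped features, 67 (35.1%) had their lowest value of window 1 at 50 min and 76 (39.8%) their highest at 90 min. Over all compared features these shares were 17.9% and 21.5%.

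The phosphate list and the chaperone and heat shock list included further damped genes. Of the 17 phosphate genes 6 were below the minimum mean, and of the 11 compared 2 damped and 8 had a lower amplitude in window 3 than in window 1. Over all features 3.74% damped and 73.5% had a lower amplitude in window 3, so the count of 8 is near the share of all features. The 2 phosphate genes that damped, PHO5 and PHO3, which encode acid phosphatases, peaked at 70 and 60 min in window 1. PHO5 read 19.002, 25.3, 59.2, 112, 127, 105 and 79.2 scaled TPM in window 1 and between 54.0 and 62.0 in window 3, and its amplitude was 2.74, 0.76 and 0.20. It was 1 of the 10 damped features with the largest fall by the trimmed amplitude. The others were EGT2, DSE3, PIR1, DSE4, DSE1, YER067C-A, PCL9, CTS1 and AIM44, of which 7 are in the mitotic exit list. AIM44, which acts at the bud neck, was likewise low at 50 min and high at 80 min, going from 4.91 at 50 min to 24.99 at 80 min and then 12.4 to 15.3 in window 3. Of the 23 chaperone and heat shock genes 4 damped, namely SSA4, HSP26, HSP12 and HSP30. HSP12, a membrane-associated stress protein, went from 402 at 50 min to 1578 at 90 min and stayed between 1967 and 2532 in window 3, above its whole window 1 range. Its flat course in window 3 was therefore at another level. The chaperone list as a whole moved the other way, and the mean log2 level was higher in window 3 than in window 1 for 4 of its 23 genes. Over all compared features that level was higher for 2596 of 5108.

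Ribosomal protein genes changed level between windows. The mean log2 level of 134 of 135 ribosomal protein genes was higher in window 3 than in window 1, by a median of 0.25, while their median amplitude was 0.34, 0.19 and 0.20. Over all compared features it was higher for 2596 of 5108, and the median difference was 0.003. Short genes moved the same way. For genes of 300 to 500 bases, the median log2 level relative to each gene's mean was -0.067 at 30 min and 0.074 at 260 min. The part of length in the shift was not tested. Ribosome biogenesis genes, nucleolar factors that assemble the ribosomal proteins, went from a median amplitude of 0.51 to 0.21 and 0.24, and 0 of 24 were wide in any window. That count is near the shares of all features, 6.17%, 2.06% and 2.27% in windows 1, 2 and 3. The variance of the mean course of these 24 genes was 0.820 times that of the members in window 1 and 0.425 times in window 3. Common reference genes were flattest in window 1, together with glycolytic genes, with medians of 0.26 for each list. ACT1, for actin, ranged from 1966 to 2474, from 2330 to 2749 and from 2293 to 2527 scaled TPM. Pheromone-responsive and a-specific genes had medians of 0.65, 0.47 and 0.34, and FIG1, a membrane protein of mating, was the only list member besides HOF1 that was wide in window 2, at 1.13. The sulfate and methionine list had medians of 0.39, 0.28 and 0.28, and its median ratio of window 3 to window 1 amplitude, 0.882, was the highest of the 16 lists. Its member MET28, a cofactor of sulfur gene activation, was the only list gene that was wide in window 3, at 1.28, and it moved back and forth between 4.58 and 12.96 scaled TPM in window 1 without a smooth course.

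The 16 lists hold only 384 of the 5108 compared features, and none of the 43 features that kept a wide range is among them. By their annotation most were short or unannotated: 25 (58.1%) matched the R64 annotation, against 94.3% of all compared features. Of those 25, 17 (68.0%) span at most 300 bases, against 3.69% of all features with a length, and the median lengths were 204 and 1158 bases. The kept features included 8 of the 33 compared snoRNAs, as well as RPR1, the RNA of RNase P, and SCR1, the RNA of the signal recognition particle. The labels name an mRNA library kit. The part of length and RNA type in the wide range was not tested.

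The courses of most kept features turned often, though in window 3 no more often than those of all features. YLR154W-F, which is not in the R64 annotation and is the top of the kept features by trimmed amplitude, read 42.0, 106, 71.9, 117, 102, 32.4 and 59.6 scaled TPM in window 1. It read 63.4, 36.1, 101, 23.7, 22.7, 143 and 20.8 in window 2, and 94.3, 60.8, 12.8, 97.6, 72.3, 13.03 and 20.4 in window 3. High and low values lay next to each other, as at 220 and 230 min, and the ranges of the windows overlapped. RPR1 read 23.1, 64.6, 19.7, 36.8, 26.9, 14.6 and 33.8 in window 1 and 56.0, 44.5, 13.001, 38.6, 61.8, 23.3 and 49.0 in window 3. Its course turned from rising to falling or back at 4 of the 5 inner time points of window 1 and at 3 of 5 in window 3. The number of such turns in window 1 averaged 3.07 for the kept features, 1.57 for the damped features and 2.70 over all features. At most 1 turn, as in a single rise or fall, was found in 115 of the 191 damped features (60.2%), in 1 of the 43 kept features (2.33%) and in 19.4% of all. In window 3 the kept features averaged 3.16 turns, the damped features 2.93 and all features 3.16.

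With the trimmed amplitude, 12 of the 43 kept features and 73 of the 191 damped features were wide in window 1, and 13 kept features and 1 damped feature were wide in window 3. In all 3 windows, 2 of the 43 kept features were wide by that measure. The median amplitude of the kept features was 1.56, 1.497 and 1.65. Among annotated genes of known role, PMP1 and PMP2 encode small proteins of the plasma membrane H+-ATPase, with 123 and 132 bases, and TOM7 encodes a subunit of the mitochondrial import pore, with 183 bases. These were named after their values were seen. PMP1 was highest at 80 min (628 scaled TPM) and 166 at the next time point, and its lowest values were 72.7 at 110 min and 56.3 at 260 min. PMP2, in contrast, had a course with 1 turn in window 1, with 751 scaled TPM at 30 min, a peak of 1555 at 60 min and 808 at 90 min, and it turned 4 times in window 3. TOM7 was also highest at 80 min (153), and 31.7 at 260 min was its lowest value. With R64 genes of at least 500 bases alone, an alternative chosen after seeing the data, 4 features kept a wide range, 133 damped and 0 widened. These 4, named after their values were seen, were SCR1, COS2, YAR010C and YOR338W, of which COS2 and YAR010C, a retrotransposon Gag gene, belong to families of near-identical copies whose reads could be split between them.

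Short genes had larger amplitudes than long genes in every window, and the median fell from window 1 to window 3 in each of the 5 length groups. For genes of up to 300 bases the median amplitude was 0.74, 0.52 and 0.53, and for genes over 2000 bases it was 0.33, 0.26 and 0.21. The share of wide genes was 29.2% in window 1 and 21.3% in window 3 for the short genes, and 2.82% and 0% for the long. By level, features with a mean of 500 TPM or more went from 0.36 to 0.21, and those of 10 to 20 TPM from 0.40 to 0.31. Of the 16 widened features, 6 (37.5%) were in the annotation, and 3 of these span at most 300 bases. YIL115W-A, the first of them by trimmed amplitude, read 11.02 to 15.01 in window 1 and 15.7, 19.1, 27.8, 21.3, 18.9, 8.88 and 10.1 in window 3. NBL1, a subunit of the chromosomal passenger complex, and BLS1, a subunit of an endosomal complex, are widened features named here after their values were seen, at amplitudes of 0.46 and 0.39 in window 1 and 1.18 and 1.33 in window 3. The snoRNA SNR44, chosen in the same way, widened from 0.95 to 1.93. YPR137C-A, a retrotransposon Gag gene of a family of near-identical copies and likewise named after its values were seen, was the damped feature with the largest amplitude of window 1 (8.91), and this rested on 0.06 scaled TPM at 90 min against 22.3 to 27.996 at the other 6 time points.

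Corrected scores for the same time points are held in another of the deposited tables, where each feature is on its own scale. There the range of the 191 damped features in window 3 was a median of 0.386 times that in window 1, and at most 0.5 times for 135 of them. For the kept features the median ratio was 1.31, and over all 5108 compared features it was 0.939. Of these 5108, 794 had a range in window 3 of at most 0.5 times that in window 1, and 2766 had a lower one. Their median range was 1.81, 1.79 and 1.64 in windows 1, 2 and 3, so on this scale the fall over all features was small. The scores were made from the same libraries and are not an independent measurement.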

How the data were processed

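Total RNA of 30 time points was made into mRNA libraries, 1 per time point, which were grouped by the time in their labels. The authors aligned reads with STAR to R64 and quantified them with RSEM, as named in the submitters' processing notes. Versions are not given in the sources used here. The deposited TPM are relative to gene length and sum to 1000000 at each time point. They keep no record of read number, so precision could not be computed, and an exact 0 can be a failed estimate. Corrected scores, from another table deposited by the authors, are on a scale of their own. The labels do not say how it was made, and the study describes quantile normalization of Z-scores among its corrections.

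TPM were divided by median-of-ratios factors, computed over the 6170 features above 0 at all 30 time points. Amplitude was taken with no pseudocount over features whose mean reached 10 TPM. The shared variance of a list is the variance over time of its mean course divided by the mean variance of its members, both on the log2 scale. Turns are changes of direction at the 5 inner time points. The trehalose and glycogen list and the stress element were added after the amplitudes were seen. The windows, gene lists and class limits were chosen with earlier results of these data known. Named are list members and, by trimmed amplitude, the 10 leading kept, damped and widened features. Other features are named where the text says that they were chosen after their values were seen. Gene names and lengths came from the RefSeq R64 annotation, which matched 86.6% of the features. No test was made. Scripts (Python 3.11.15, numpy 2.4.6, pandas 2.3.3, matplotlib 3.10.9) were tested on simulated data. The alternatives tried changed the scaling, filter, pseudocount, amplitude measure, threshold and windows.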

Additional observations from a re-analysis of the deposited data

How the results depend on the processing

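The median amplitude fell from window 1 to window 3 under every alternative tried, and 0 of the compared cell cycle genes were wide in window 3 under any of them. In the main setting 2.27% of all features were wide in window 3. The counts moved with the filter, the threshold and the measure of amplitude. In the order wide in windows 1, 2 and 3, kept, damped and widened, the counts were 578, 335, 350, 181, 243 and 53 with a mean of at least 1 TPM, 599, 354, 372, 199, 244 and 54 without a filter, and 133, 21, 21, 9, 99 and 0 with at least 50 TPM, where the median difference was -0.13. They were 631, 230, 229, 100, 364 and 27 with a limit of 0.75 and 111, 29, 44, 10, 74 and 7 with a limit of 1.5. With the trimmed amplitude they were 93, 19, 19, 2, 79 and 11, with a median difference of -0.068. With a straight line removed in each window they were 172, 69, 97, 22, 89 and 18, with a median difference of -0.047. Quantile normalization gave 65 kept features, windows of 5 time points with the same gaps gave 28, and 140 and 150 min added to window 2 gave 162 wide there. Of 2 alternatives chosen after seeing the data, R64 genes of at least 500 bases gave 145, 12, 9, 4, 133 and 0. Windows of 10 time points (30 to 130 min without 100 min, and 190 to 290 min without 260 min) gave 228 wide in window 3, 45 widened and a median difference of -0.082. In those long windows the median amplitude of the CLB2 cluster went from 1.32 to 0.38, so it also fell there. Leaving out each time point in turn gave 259 to 315 wide features in window 1, 86 to 105 in window 2, 92 to 116 in window 3, 34 to 42 kept, 149 to 207 damped, 12 to 25 widened and a median difference between -0.13 and -0.068. Without 110 min, which the study also lists for correction, 89 were wide in window 2. Where a value moved, the cause was not tested. The unknown depth, the 7 time points per window and windows shorter than a cycle limit what the amplitudes can show. No paired analysis was possible because there is a lone sample at every time point.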
